A study of Rattus norvegicus with 6 samples.

Results

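Interferon-stimulated genes are the genes that cells switch on after interferon binds its receptors, and a list of 44 of them, chosen by gene name, was followed in bulk RNA of rat tail discs. Of the 44 names, 42 had a row among the 30562 genes of the count table, and 40 had enough reads to be tested among 15537 genes. The names Oas1b and Ddx58 had no row, and their levels under these names are not analysed here. Isg15 was listed at 0 in all 6 libraries, and Irf9 had at most 10 counts, so neither was tested.

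Interferon signals through JAK kinases to STAT and IRF transcription factors, which bind short promoter elements and switch on antiviral enzymes, membrane proteins, RNA sensors and parts of the antigen-processing machinery. Type I interferons act mainly through a complex of STAT and IRF9 proteins on the interferon-stimulated response element, and interferon gamma acts mainly through STAT dimers on the gamma-activated site. Macrophages and other leukocytes that enter an injured disc can make and answer interferon, and the resident disc cells carry its receptors too.

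The discs came from male Sprague-Dawley rats of 12 weeks, wild type in the records, whose tail disc was injured with a needle in both groups. One group of 3 libraries is labelled Control and, by the paper's methods, received 10 μL of PBS. The other 3 libraries are labelled AF-PTK@LEV@SPP1, after hybrid vesicles of liposome and bacterial outer membrane that carry an annulus fibrosus-binding peptide on a linker cut by reactive oxygen species. These vesicles were loaded with an siRNA against Spp1, described as one against mouse Spp1, and were injected into the disc in 10 μL at 1 mg/kg of siRNA from 24 h after injury. The paper describes a course of 8 weeks, whereas the sample records name 14 days, an untreated control and macrophages sorted from digested mouse discs.

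The Control libraries 1, 2 and 3 held 17942989, 16565291 and 17489851 counts, and the 3 of the other group held 17074981, 15560728 and 17855184. At these depths 3 counts, taken as the smallest measurable level, stood at 0.167 to 0.193 CPM before normalization, a limit that covers counting error only. Levels are given as normalized CPM, counts scaled to library size, which cannot be compared between genes because they are not divided by transcript length. Spp1, the target of the siRNA, stood at 8123, 4411 and 4417 CPM in Control 1, 2 and 3 and at 8054, 6903 and 8461 CPM in libraries 1, 2 and 3 of the treated group. No treated library was below Control 2 or 3, and the target was not called lower (log2 fold change 0.31, SE 0.37, 95% interval −0.62 to 1.24, edgeR adjusted p = 0.628). These values do not show a loss of Spp1 in this RNA, and the treated group is therefore called the AF-PTK-labelled libraries throughout. The paper measured the knockdown in cultured bone marrow-derived macrophages after transfection, which differ from these discs in cells and in time.

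Genes of disc and cartilage were abundant in all 6 libraries, although the records name sorted macrophages. Summed over 11 disc and cartilage markers, the level was 50200, 74220 and 74430 CPM in Control 1, 2 and 3 and 102900, 72540 and 94420 CPM in AF-PTK-labelled 1, 2 and 3, with Col1a1 holding the most reads. Summed over 13 markers of macrophages and monocytes, it was 3234, 2174 and 2152 CPM against 734.2, 2052 and 2071 CPM. In bulk tissue of this kind, fewer cells of a type and less RNA per cell cannot be told apart.

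Control 2 and Control 3 differed by little more than sampling noise. Over 14393 genes their counts varied 1.33 times as much as counting alone would give, and 16 genes (0.111%) differed, whereas the 5 other pairs within a group had ratios of 54.9 to 109, with 34.2% to 50.7% of genes differing. The pair was therefore summed and counted as 1 sample, which left 2 Control samples against 3 AF-PTK-labelled samples. Both near-identical libraries are still printed at each gene, and the fit that keeps all 6 as separate samples is given for members and lists whose calls it changed.

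Among the 40 tested members, 1 fell and none rose in the AF-PTK-labelled libraries by edgeR's quasi-likelihood test at a Benjamini-Hochberg adjusted p under 0.05. The gene that fell was Ifitm3. Over all genes tested, 400 were called lower (2.57%) and 175 higher (1.13%), so the members' share of 2.5% called lower lay next to that of all genes. At an unadjusted p under 0.05, 5 members were lower and 2 higher, beside 2015 lower and 1926 higher of the 15537 genes. DESeq2 called 2 members lower and 2 higher, beside 1440 and 1132 of all genes, and limma-voom called 1 lower and 0 higher, beside 315 and 139. These counts over all genes are the ones to read the lists against. With all 6 libraries kept as separate samples, 2 members were called lower (Ifitm3 and Ifitm2) and 1 higher (Oas1a), beside 9.93% of all genes lower and 8.2% higher. Without Control 1 the fit called 280 genes, without AF-PTK-labelled 1 it called 113, and without AF-PTK-labelled 2 or 3 it called 0, so every edgeR call on 5 samples named here, of members and of other genes, was lost in these last fits. DESeq2 and limma-voom were not run with a library left out.

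The members did not move as a block. Their median log2 fold change was 0.06, beside 0.05 over all genes tested, with 21 members above 0 and 19 below, and single members ran from −1.25 for Ifitm1 to 3.01 for Rsad2. The 95% interval of the log2 fold change lay within 1 in either direction for 18 of the 40 members (45%), beside 52.2% of all genes. Over the 5 distinct samples, 8 members were lower in all AF-PTK-labelled libraries than in both Control samples, namely Usp18, Ifi27, Ifitm1, Ifitm2, Ifitm3, Gbp2, Psmb8 and Eif2ak2. A further 3 members, Oas1a, Rsad2 and Herc6, were higher in all of them, and the groups overlapped for 29. Such separation was common, with 21.9% of all genes lower and 23.9% higher, and an exact permutation test of 3 against 2 samples allows no two-sided p below 0.1.

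**Figure D1:**
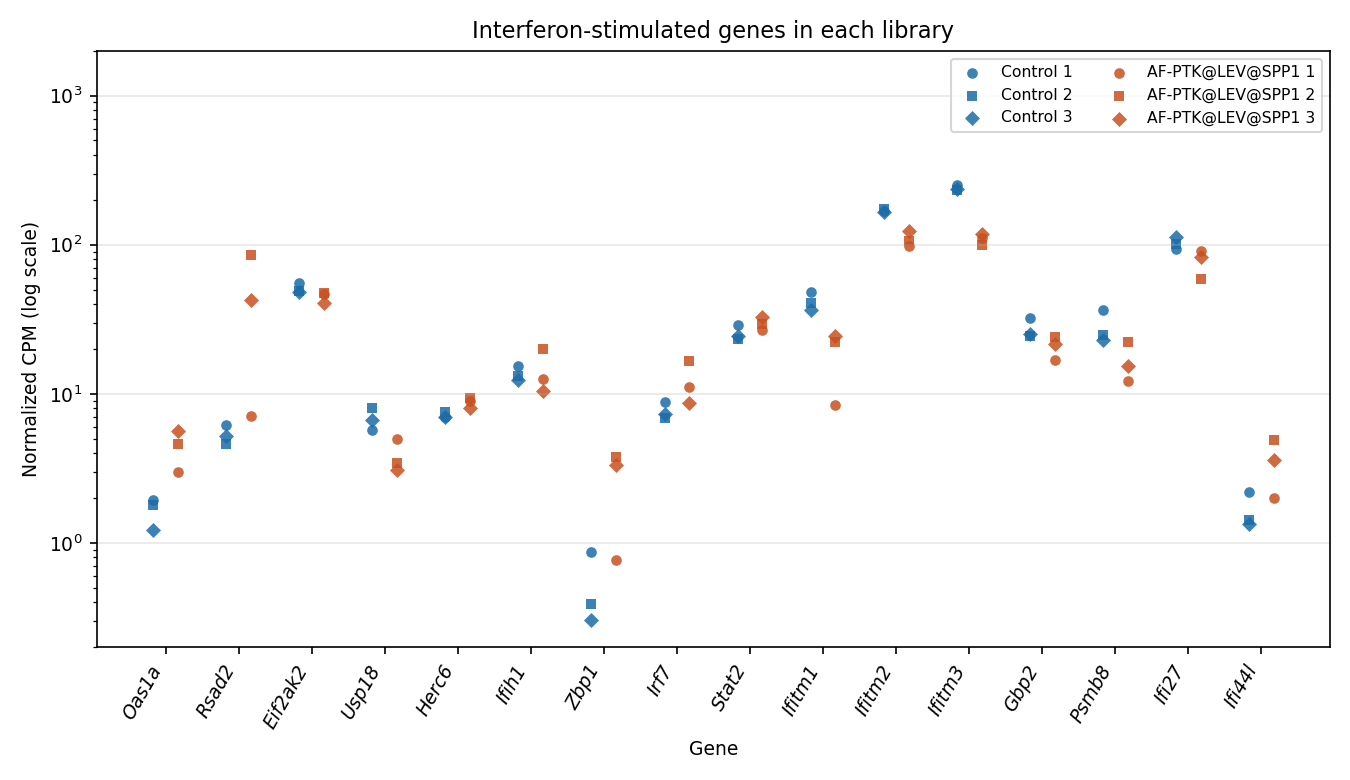
Normalized CPM (log axis) of 16 interferon-stimulated genes in each of 6 libraries, blue for Control and orange for the AF-PTK-labelled libraries, with the marker shape giving the replicate number. Ifitm3 lay between 99.5 and 117 CPM in the AF-PTK-labelled libraries and between 232 and 253 CPM in Control, while Rsad2 spread from 7.06 to 85.8 CPM among the AF-PTK-labelled libraries.

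The member called by edgeR belongs to the interferon-induced transmembrane proteins, which hinder the fusion of viruses with cell and endosome membranes. Of these 3 genes and Bst2, edgeR and limma-voom called 1 lower, DESeq2 called 2 lower (Ifitm3 and Ifitm2), and 3 were lower at an unadjusted p under 0.05. Ifitm3, which acts mainly in endosomes, stood at 253, 232 and 237 CPM in Control 1, 2 and 3 and at 111, 99.5 and 117 CPM in AF-PTK-labelled 1, 2 and 3. All 3 AF-PTK-labelled libraries were lower than every Control library, with little spread within either group. The log2 fold change was −1.17 (SE 0.13, 95% interval −1.49 to −0.85, edgeR adjusted p = 0.023), lower in 3 of 3 samples. The call was lost without Control 1 (adjusted p = 0.0615), without AF-PTK-labelled 1 (0.0602), 2 (0.0816) or 3 (0.136), and without both near-identical Control libraries (0.0993), while the log2 fold change stayed between −1.22 and −1.10 over 17 alternatives.

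Ifitm2, a close relative of Ifitm3, stood at 169, 173 and 165 CPM in Control and at 98.4, 106 and 124 CPM in the AF-PTK-labelled libraries. Its groups did not overlap, and the difference was smaller than that of Ifitm3. The log2 fold change of −0.64 (SE 0.14, 95% interval −0.99 to −0.29) missed the threshold on 5 samples (edgeR adjusted p = 0.074) and passed it on 6 libraries (0.0158) and with DESeq2 on 5 samples (0.000475), within a range of 0.000475 to 0.254 over 17 alternatives. Ifitm1, which acts mainly at the cell surface, stood at 48.4, 40.6 and 36.7 CPM in Control and at 8.35, 22.3 and 24.5 CPM in the AF-PTK-labelled libraries. AF-PTK-labelled 1 was far below the rest for this gene, and the groups did not overlap. Its log2 fold change of −1.25 had a wide interval of −2.40 to −0.10 (SE 0.45, edgeR adjusted p = 0.173).

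Ifitm1, Ifitm2 and Ifitm3 lie close together on chromosome 1, between positions 196051537 and 196112203 of the authors' annotation, whose build is not named. They are similar in sequence, and the sources do not say how reads shared between genes were counted, so the split of reads among the 3 is uncertain. Bst2 (tetherin), which holds budding virus particles at the cell membrane, stood at 26.3, 15.1 and 16.1 CPM in Control and at 22.8, 25.5 and 23.3 CPM in the AF-PTK-labelled libraries. Control 1 was the highest library and the groups overlapped (log2 fold change 0.18, 95% interval −0.42 to 0.79, edgeR adjusted p = 0.66). Summed over these 4 membrane proteins, the level was 496.7, 461.3 and 454.6 CPM in Control against 240.2, 252.9 and 288.9 CPM.

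The antiviral effectors, enzymes and binding proteins that block viral RNA, translation or replication, held the members with the largest fold changes upward. None of the 14 tested was called by edgeR or limma-voom, 2 were higher at an unadjusted p under 0.05, and DESeq2 called these 2, Oas1a and Rsad2, higher. Rsad2 (viperin), a radical SAM enzyme that makes a chain-terminating nucleotide, stood at 6.22, 4.63 and 5.19 CPM in Control and at 7.06, 85.8 and 42.3 CPM in the AF-PTK-labelled libraries. AF-PTK-labelled 2 and 3 were far above the rest, whereas AF-PTK-labelled 1 lay just above Control 1. The log2 fold change of 3.01 thus had an SE of 1.05 and a 95% interval of 0.35 to 5.67 (edgeR adjusted p = 0.163), and without AF-PTK-labelled 2 it was 2.15.

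Oas1a, which makes the 2-5A signal that activates RNase L when double-stranded RNA is present, stood at 1.95, 1.80 and 1.22 CPM in Control and at 3.00, 4.59 and 5.64 CPM in the AF-PTK-labelled libraries. All AF-PTK-labelled libraries were above every Control library, at low levels of 20 to 99 counts. The log2 fold change of 1.35 (SE 0.37, 95% interval 0.41 to 2.28) missed the threshold on 5 samples (edgeR adjusted p = 0.11) and passed it on 6 libraries (0.0336). Its relatives Oas2, Oas3, Oasl and Oasl2 had log2 fold changes of −0.06, 0.44, 0.17 and −0.01, with overlapping groups.

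Ifit1, which binds viral RNA lacking a methylated cap, stood at 6.63, 2.51 and 2.26 CPM in Control and at 4.70, 44.2 and 13.7 CPM in the AF-PTK-labelled libraries. Only AF-PTK-labelled 2 and 3 lay above Control 1, and the groups overlapped (log2 fold change 2.22, SE 1.05, 95% interval −0.45 to 4.89, edgeR adjusted p = 0.256). The log2 fold change of Ifit1 was 1.04 without AF-PTK-labelled 2 and 3.11 without Control 1. Its neighbours on chromosome 1, Ifit2 and Ifit3, did not share this spread, with log2 fold changes of −0.03 and −0.26. Ifit1 overlaps Ifit1bl on the opposite strand, and the use of strand in counting is not given in the sources used here.

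Cmpk2, a mitochondrial nucleotide kinase whose gene starts 14096 bases from the start of Rsad2 on the opposite strand, stood at 4.06, 2.32 and 1.77 CPM in Control and at 3.06, 13.4 and 6.04 CPM in the AF-PTK-labelled libraries. As with Rsad2 and Ifit1, AF-PTK-labelled 2 was the highest library, and for Cmpk2 AF-PTK-labelled 1 lay within the Control range (log2 fold change 1.30, edgeR adjusted p = 0.306, and 0.58 without AF-PTK-labelled 2). Eif2ak2 (PKR), the kinase that halts translation when it binds double-stranded RNA, stood at 54.9, 48.8 and 47.8 CPM in Control and at 46.5, 47.4 and 40.8 CPM in the AF-PTK-labelled libraries. The gap between its groups was narrow (log2 fold change −0.21, 95% interval −0.52 to 0.10, edgeR adjusted p = 0.333). The GTPases Mx1 and Mx2, which trap viral nucleocapsids, had log2 fold changes of 0.41 and 0.48 at no more than 96 counts, and Samd9l, an inhibitor of translation, had −0.07.

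**Figure D2:**
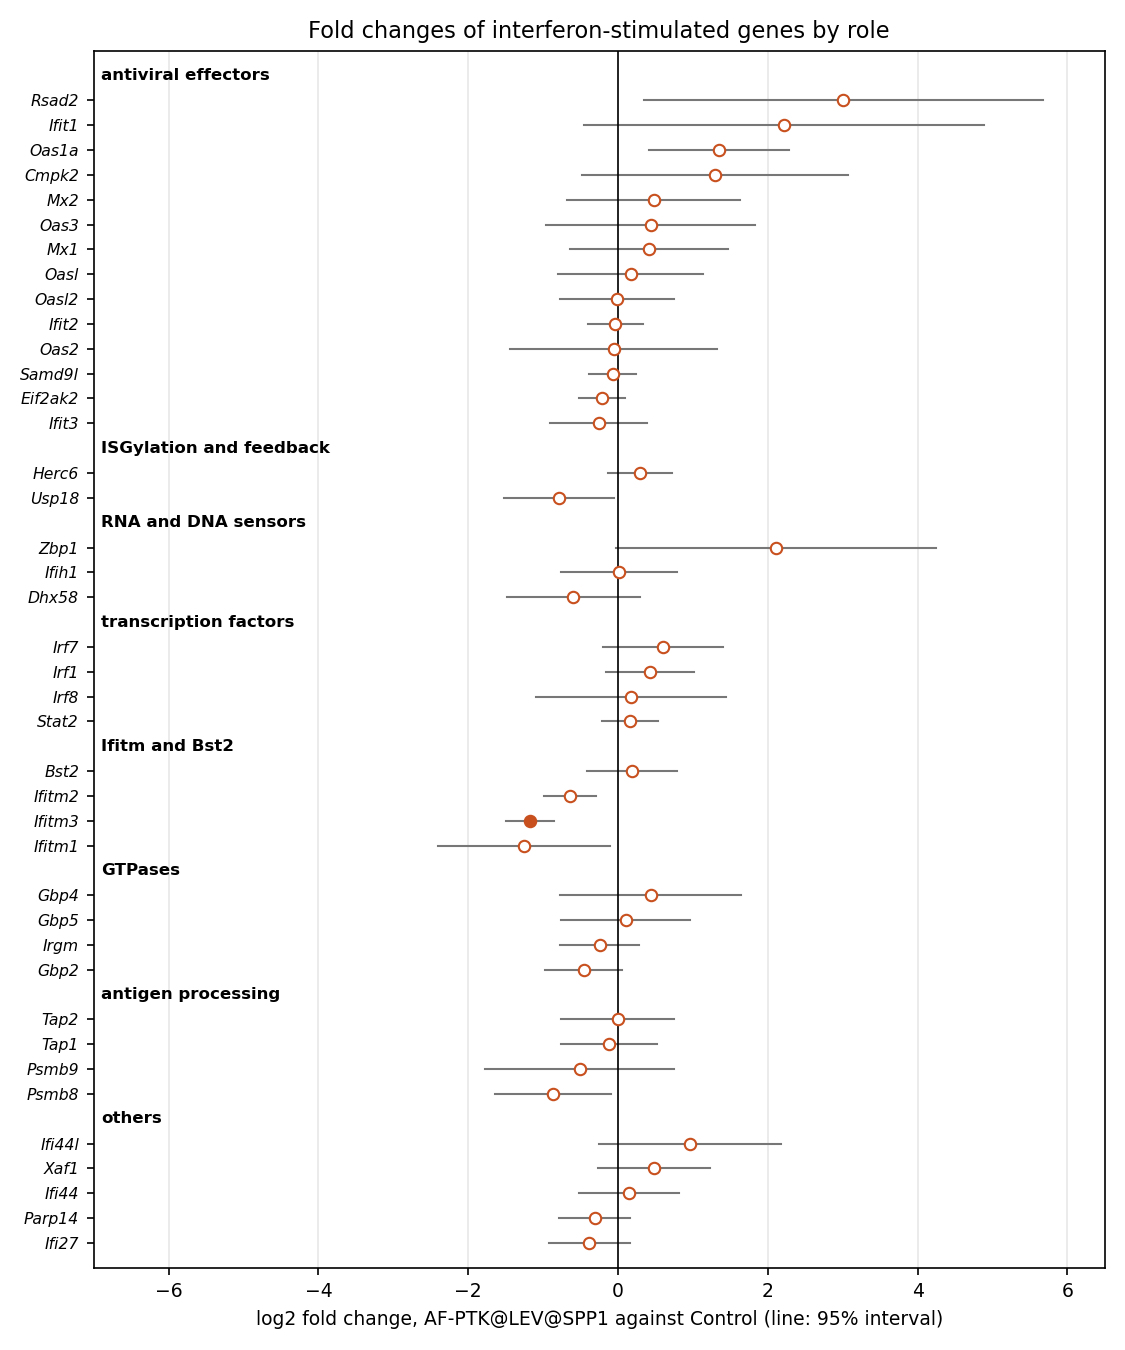
Log2 fold change of the AF-PTK-labelled libraries against Control for 40 interferon-stimulated genes, ordered by role, from edgeR on 5 samples. Lines are 95% intervals and the filled point marks an adjusted p under 0.05, reached by Ifitm3 at −1.17, while the widest intervals belong to Rsad2 and Ifit1.

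For protein modification by ISG15 and its feedback, 2 of 3 members could be tested and none was called by edgeR, DESeq2 or limma-voom, with 1 lower at an unadjusted p under 0.05. Usp18, the protease that removes ISG15 from proteins and dampens the type I receptor, stood at 5.75, 8.04 and 6.66 CPM in Control and at 4.94, 3.44 and 3.08 CPM in the AF-PTK-labelled libraries. The AF-PTK-labelled libraries were all lower, AF-PTK-labelled 1 by a small margin (log2 fold change −0.79, SE 0.29, 95% interval −1.52 to −0.05, edgeR adjusted p = 0.177). Herc6, the rodent ligase that attaches ISG15, stood at 6.93, 7.59 and 7.02 CPM in Control and at 8.996, 9.35 and 8.04 CPM in the AF-PTK-labelled libraries. Herc6 was thus slightly above Control in all 3 (log2 fold change 0.30, 95% interval −0.13 to 0.72, edgeR adjusted p = 0.323). Isg15 itself was listed at 0 counts in every library, and its whole span of 1288 bases overlaps Agrn on the same strand. The sources do not say how reads shared between genes were counted, so these 0 counts do not show that the transcript was absent.

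Of the sensors of foreign RNA and DNA, 3 of 4 names had a row, and none was called by edgeR, DESeq2 or limma-voom or had an unadjusted p under 0.05. Ifih1 (MDA5), which recognises long double-stranded RNA, stood at 15.4, 13.1 and 12.3 CPM in Control and at 12.6, 19.9 and 10.4 CPM in the AF-PTK-labelled libraries. The groups overlapped, with a log2 fold change of 0.01 and a 95% interval of −0.77 to 0.79. Zbp1, a sensor of Z-form nucleic acid that can trigger necroptosis, stood at 0.87, 0.39 and 0.31 CPM in Control and at 0.76, 3.74 and 3.31 CPM in the AF-PTK-labelled libraries. AF-PTK-labelled 2 and 3 were again high and AF-PTK-labelled 1 lay below Control 1, at 5 to 62 counts (log2 fold change 2.12, SE 0.85, 95% interval −0.02 to 4.25, edgeR adjusted p = 0.2). Over 17 alternatives the log2 fold change of Zbp1 ran from 1.56 to 2.88, the latter without Control 1. Dhx58 (LGP2), a regulator of the RNA sensors, had a log2 fold change of −0.60 with overlapping groups. The RefSeq gene table gives Ddx58 as a synonym of Rig1, whose row, not counted among the members, stood at 13.0, 11.3 and 14.0 CPM in Control against 11.8, 14.3 and 16.2 CPM.

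Of the 4 tested transcription factors none was called by edgeR, DESeq2 or limma-voom or had an unadjusted p under 0.05. Stat2, the STAT specific to type I and type III interferon, stood at 28.9, 23.2 and 24.4 CPM in Control and at 26.6, 29.3 and 32.5 CPM in the AF-PTK-labelled libraries. Its groups overlapped, and its 95% interval of −0.22 to 0.53 was narrow (log2 fold change 0.16, edgeR adjusted p = 0.546). Irf7, which amplifies the production of interferon alpha, stood at 8.78, 6.88 and 7.27 CPM in Control and at 11.1, 16.6 and 8.72 CPM in the AF-PTK-labelled libraries. AF-PTK-labelled 2 was the highest and AF-PTK-labelled 3 lay below Control 1 (log2 fold change 0.60, 95% interval −0.19 to 1.40, edgeR adjusted p = 0.292). Irf1, which drives genes of the interferon gamma response, had a log2 fold change of 0.43, and Irf8, a factor of myeloid cells, had 0.18 with a 2.51-fold range among the AF-PTK-labelled libraries. The log2 fold change of Irf8 was 0.86 without Control 1 and −0.10 without AF-PTK-labelled 2. Irf9, the DNA-binding partner of Stat2, had 3, 5 and 1 counts in Control and 1, 10 and 4 counts in the AF-PTK-labelled libraries, too few for a comparison, and its whole span of 5448 bases overlaps Rnf31 on the same strand.

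The interferon-inducible GTPases, which attack the vacuoles of intracellular pathogens, showed no call by edgeR, DESeq2 or limma-voom and no unadjusted p under 0.05 among 4 members. Gbp2 stood at 32.1, 24.3 and 25.2 CPM in Control and at 16.8, 24.01 and 21.4 CPM in the AF-PTK-labelled libraries. The highest AF-PTK-labelled library lay just below the lowest Control library (log2 fold change −0.46, SE 0.20, 95% interval −0.97 to 0.05, edgeR adjusted p = 0.23). Gbp4, Gbp5 and Irgm had overlapping groups and log2 fold changes of 0.44, 0.10 and −0.24.

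Genes of antigen processing, which cut proteins into peptides and move them to MHC class I, had 0 of 4 called by edgeR, DESeq2 or limma-voom, with 1 lower at an unadjusted p under 0.05. Psmb8, a catalytic subunit of the immunoproteasome, stood at 36.2, 24.8 and 23.0 CPM in Control and at 12.2, 22.1 and 15.4 CPM in the AF-PTK-labelled libraries. The groups were separate by a small margin between AF-PTK-labelled 2 and Control 3 (log2 fold change −0.87, SE 0.31, 95% interval −1.64 to −0.09, edgeR adjusted p = 0.167). Psmb9, another such subunit, and the peptide transporters Tap1 and Tap2 had log2 fold changes of −0.51, −0.12 and −0.01 with overlapping groups, and without Control 1 these were 0.04, 0.03 and 0.20. Psmb9 and Tap1 overlap by 856 bases on opposite strands, so their reads may not be fully separate.

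Of the 5 remaining members none was called by edgeR, DESeq2 or limma-voom or had an unadjusted p under 0.05. Ifi27, a mitochondrial protein often read as a marker of interferon exposure, stood at 93.8, 102 and 113 CPM in Control and at 91.2, 58.8 and 82.9 CPM in the AF-PTK-labelled libraries. All AF-PTK-labelled libraries were lower, AF-PTK-labelled 1 by a small margin (log2 fold change −0.38, 95% interval −0.92 to 0.16, edgeR adjusted p = 0.315), and its row spans 3 other genes, Ppp4r4 on the same strand among them. Ifi44l stood at 2.21, 1.42 and 1.34 CPM in Control and at 2.00, 4.89 and 3.59 CPM in the AF-PTK-labelled libraries. AF-PTK-labelled 1 lay below Control 1, and AF-PTK-labelled 2 and 3 above it (log2 fold change 0.96, 95% interval −0.25 to 2.17, edgeR adjusted p = 0.275). Ifi44, the apoptosis-promoting Xaf1 and the ADP-ribosyltransferase Parp14 had log2 fold changes of 0.15, 0.48 and −0.31.

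Single libraries stood apart across many members. Among the AF-PTK-labelled libraries, library 2 was the highest for 29 of the 40 members and library 1 the lowest for 25. The ratio of the highest to the lowest AF-PTK-labelled library exceeded 3 for 5 members (12.5%), namely Rsad2 at 12.2, Ifit1 at 9.39, Zbp1 at 4.89, Cmpk2 at 4.38 and Oas3 at 3.51, beside 10.3% of all genes, and its median was 1.69 for members and 1.34 for all genes. In the Control group, Control 1 exceeded the mean of the near-identical pair for 33 of 40 members (82.5%), beside 50.1% of 15417 genes with reads in both samples. Summed over the 42 rows, the level was 1091, 961.1 and 957.8 CPM in Control 1, 2 and 3 and 705.2, 945.1 and 840 CPM in AF-PTK-labelled 1, 2 and 3. A large part came from the 4 Ifitm and Bst2 genes, at 496.7, 461.3 and 454.6 CPM against 240.2, 252.9 and 288.9 CPM. The 14 antiviral effectors summed to 166.6, 151.1 and 145.8 CPM in Control and 143.5, 295.2 and 198.9 CPM in the AF-PTK-labelled libraries, so these sums overlapped.

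Several cell type markers differed between the same libraries. The 5 leukocyte markers, with Laptm5 holding the most reads, summed to 547.7, 308 and 302.5 CPM in Control and 154.3, 476.6 and 505.6 CPM in the AF-PTK-labelled libraries, with 0 called by edgeR, DESeq2 or limma-voom and 0 at an unadjusted p under 0.05. Of the 13 macrophage and monocyte markers, with Lyz2 holding the most reads, edgeR called 2 lower, Cd14 (log2 fold change −1.89, adjusted p = 0.0119) and Cd68 (−1.97, adjusted p = 0.0231), DESeq2 called 4 lower, limma-voom 2 lower, and 4 were lower at an unadjusted p under 0.05. With all 6 libraries kept, Mrc1 was called lower as well (adjusted p = 0.016). Of the 8 neutrophil markers, 7 were tested and 0 called by edgeR, DESeq2 or limma-voom or at an unadjusted p under 0.05, Ltf had at most 1 count, and the list, led by S100a9, summed to 1104, 172.3 and 163 CPM in Control and 281.3, 2821 and 3899 CPM in the AF-PTK-labelled libraries.

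Of the plasmacytoid dendritic cell markers, 5 of 6 were tested, and 0 were called by edgeR, DESeq2 or limma-voom or at an unadjusted p under 0.05. Runx2, which bone and cartilage cells also express, held the most reads, and Ly6d had at most 1 count. Siglech, a defining marker of these interferon-producing cells, stood at 3.90, 0.84 and 0.43 CPM in Control and at 1.24, 3.80 and 2.74 CPM in the AF-PTK-labelled libraries. The list summed to 171.2, 99.6 and 107 CPM in Control and 111, 130 and 130 CPM in the AF-PTK-labelled libraries. The dendritic cell list, led by Itgax, summed to 43.8, 36.1 and 33.3 CPM against 25.7, 42.2 and 36.4 CPM, likewise with 0 of 5 tested called by any of these.

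Of 7 T cell markers, led by Cd2, edgeR called 3 lower (Cd2, Cd8a and Cd8b), DESeq2 5 and limma-voom 2, with 6 lower at an unadjusted p under 0.05. Cd3e and Cd3g were called lower as well with all 6 libraries kept, and the list summed to 23.1, 24.6 and 23.1 CPM in Control and 7.997, 8.99 and 9.40 CPM in the AF-PTK-labelled libraries. NK cell markers, led by Nkg7, summed to 8.99, 3.86 and 2.02 CPM against 4.70, 19.4 and 24.1 CPM, and B cell markers, led by Cd79a, to 42.5, 4.95 and 3.54 CPM against 21.9, 57.1 and 89.4 CPM, with 0 of 5 called in each by edgeR, DESeq2 or limma-voom or at an unadjusted p under 0.05. The T cell sum was lower in every AF-PTK-labelled library, whereas the NK and B cell sums overlapped between the groups. Within the T cell list Cd247 went the other way, at 2.52, 2.06 and 1.53 CPM in Control and 2.76, 2.84 and 2.68 CPM in the AF-PTK-labelled libraries. It was not called (log2 fold change 0.36, edgeR adjusted p = 0.471). Erythroid markers, led by Hba-a1, summed to 2374, 3185 and 3276 CPM against 2497, 20400 and 14020 CPM, and skeletal muscle markers, led by Acta1, to 882.5, 1139 and 1156 CPM against 846.3, 8766 and 2230 CPM. Of 5 genes in each, edgeR and limma-voom called 0, DESeq2 called 2 erythroid and 0 muscle genes higher, and 1 erythroid and 0 muscle genes were higher at an unadjusted p under 0.05.

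Adipocyte markers, led by Fabp4, summed to 382.6, 64.3 and 68.3 CPM in Control and 951.8, 1549 and 676.2 CPM in the AF-PTK-labelled libraries, with 0 of 5 called by edgeR on 5 samples or by limma-voom, 4 higher at an unadjusted p under 0.05, 4 higher by DESeq2 and 1, Lep, higher by edgeR with all 6 libraries kept. Endothelial markers, led by Pecam1, summed to 455.9, 582.4 and 571.2 CPM against 334.6, 382.9 and 386.7 CPM, with 0 of 5 called by edgeR on 5 samples or by limma-voom, 4 lower at an unadjusted p under 0.05, 3 lower by DESeq2 and 4 lower by edgeR with all 6 libraries kept (Cdh5, Vwf, Tie1 and Pecam1). Of the 11 disc and cartilage markers, edgeR called Cilp higher (log2 fold change 2.69, adjusted p = 0.0221), limma-voom called 1 higher, DESeq2 called 4 higher, and 4 were higher at an unadjusted p under 0.05. The summed levels of 7 lists (leukocytes, macrophages, both kinds of dendritic cells, NK cells, B cells and neutrophils) were higher in Control 1 than in Control 2 and 3. They were also higher in AF-PTK-labelled 2 and 3 than in 1. Rsad2, Ifit1, Cmpk2 and Zbp1, 4 members picked after their values were seen, had the same order. It was not particular to them. Ifitm1, Psmb8, Gbp2 and Irf8 had it too, among other members, with log2 fold changes of −1.25, −0.87, −0.46 and 0.18. The share of all genes with this order was not counted. The T cell and endothelial sums were lower in every AF-PTK-labelled library than in every Control library. So were 5 of the 13 macrophage markers (Cd14, Cd68, Mrc1, Csf1r and Itgam). Ifitm3 and the other members named above as lower without overlap were lower in the same way. Over the 5 distinct samples, 21.9% of all genes tested were lower without overlap. The groups overlapped for the other 8 macrophage markers, among them Lyz2 and Cd163, and Cd163 had a log2 fold change of 1.15. The part of any of these cell types in the levels of the interferon-stimulated genes was not tested.

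Upstream of the members, transcripts of interferons were near the limit of measurement. Of 8 interferon ligands with a row, none had enough reads to be tested, and 6 (Ifna1, Ifna4, Ifnb1, Ifnk, Ifnl1 and Ifnl3) had at most 2 counts in any library. Ifng, the interferon of T and NK cells, had 4 counts in Control 3 and 0 in the other libraries. Ifne had 4, 3 and 15 counts in Control and 1, 0 and 1 in the AF-PTK-labelled libraries. Levels below 3 counts were not measurable at this depth.

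The receptors were easily measured, and none of the 5 tested was called by edgeR on 5 samples, although all 5 were lower at an unadjusted p under 0.05, limma-voom called 0 lower and DESeq2 called 5 lower. Over all genes, 25.4% had an unadjusted p under 0.05, and DESeq2 called 2572 of 15537. Ifnar1, a chain of the type I receptor, stood at 180, 169 and 163 CPM in Control and at 123, 129 and 127 CPM in the AF-PTK-labelled libraries. The groups were well apart (log2 fold change −0.46, SE 0.11, 95% interval −0.74 to −0.19, edgeR adjusted p = 0.0838). With all 6 libraries kept, 4 receptor genes were called lower, namely Ifnar1, Ifnar2, Ifngr2 and Ifnlr1. Il10rb, the shared chain of the type III receptor, had at most 1 count, and its span lies within that of Ifnar2 on the same strand.

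Of 11 kinases, STATs and feedback genes, 2 fell and 0 rose by edgeR on 5 samples, limma-voom called 2 lower, DESeq2 called 5 lower, and 5 were lower and 1 higher at an unadjusted p under 0.05. Socs3, an inhibitor of JAK signalling that STAT3 induces, stood at 114, 161 and 157 CPM in Control and at 18.4, 15.3 and 19.7 CPM in the AF-PTK-labelled libraries. Every AF-PTK-labelled library was far below every Control library (log2 fold change −2.95, SE 0.20, edgeR adjusted p = 0.0119). Ptpn2, a phosphatase of JAKs and STATs, fell from 44.5, 49.3 and 44.4 CPM to 20.2, 24.1 and 27.0 CPM (log2 fold change −0.95, SE 0.15, edgeR adjusted p = 0.0419). Jak1, which holds the most reads of this list, stood at 239, 247 and 247 CPM in Control and at 227, 242 and 222 CPM in the AF-PTK-labelled libraries, with a log2 fold change of −0.09. With all 6 libraries kept, Socs1, Stat3 and Jak2 were called lower as well.

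The pathway that induces interferon, from Toll-like receptors and cytosolic sensors to the kinases that activate IRF3, showed 0 calls among 16 genes by edgeR, DESeq2 and limma-voom, with 3 lower and 1 higher at an unadjusted p under 0.05. Irf3, which holds the most reads there, stood at 38.5, 42.6 and 45.9 CPM in Control and at 45.8, 45.4 and 48.8 CPM in the AF-PTK-labelled libraries. Mavs, the mitochondrial adaptor of the RNA sensors, was called higher with all 6 libraries kept (adjusted p = 0.0413) and not on 5 samples (edgeR adjusted p = 0.143).

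Other interferon-responsive genes, listed separately from the 44, held 36 tested genes, with 0 called on 5 samples by edgeR or limma-voom and a median log2 fold change of 0.11. At an unadjusted p under 0.05, 6 were lower and 3 higher, and DESeq2 called 3 lower and 2 higher. With all 6 libraries kept, the ISG15-conjugating enzyme Ube2l6 and the lysosomal reductase Ifi30 were called lower and the death ligand Tnfsf10 higher. Nampt, which holds the most reads of this list, stood at 92.0, 125 and 124 CPM in Control and at 98.8, 86.8 and 94.3 CPM in the AF-PTK-labelled libraries.

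Of 11 tested partners of MHC class I, edgeR on 5 samples called 1 higher, RT1-S3, and 0 lower, limma-voom called 1 higher, DESeq2 called 1 lower and 1 higher, and 1 was lower and 1 higher at an unadjusted p under 0.05. RT1-S3, a rat class I gene outside the classical region, stood at 37.4, 26.6 and 26.1 CPM in Control and at 68.5, 77.4 and 74.0 CPM in the AF-PTK-labelled libraries. The groups did not overlap (log2 fold change 1.19, SE 0.18, edgeR adjusted p = 0.0397), and reads shared among class I genes make its level uncertain. Calr, the chaperone with the most reads of the list, was called lower with all 6 libraries kept (adjusted p = 0.0201) and not on 5 samples (edgeR adjusted p = 0.0942).

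Of 12 tested targets of interferon gamma, of which 6 are MHC class II chains, 0 were called by edgeR on 5 samples or by limma-voom, with 2 lower at an unadjusted p under 0.05 and 2 lower by DESeq2. The median log2 fold change was −0.41. Cd74, the invariant chain with the most reads of the list, stood at 179, 189 and 189 CPM in Control and at 108, 189 and 142 CPM in the AF-PTK-labelled libraries. Its groups overlapped, with AF-PTK-labelled 1 the lowest, and Socs1 and Icam1 were called lower with all 6 libraries kept.

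The promoters of the members were searched for both elements named above. The names were chosen as genes that answer interferon, which acts through these elements, so a high share is not independent of that choice. RefSeq promoter windows of 300 bases (250 before to 50 after the gene start, build GRCr8) were found by symbol for 33 of the 44 names, Oas1b among them. An element of the interferon-stimulated response type, searched on both strands as GAAA, any 2 bases, GAAA, was present in 24 of the 33 (72.7%), beside 1312 of 33469 windows of all genes (3.92%). An element of the gamma-activated type, searched as TTC, any 3 bases, GAA, was present in 11 of the 33 (33.3%), beside 8.87% of all windows, and 8 members held both. These are matches of letters, not measured binding sites. Mx2, Ifit1, Ifit2, Isg15, Oas2, Ddx58, Dhx58, Usp18, Ifitm1, Zbp1 and Samd9l had no window by that symbol.

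The first element was found in all 4 GTPases, in all 3 windows of the Ifitm and Bst2 group and in 3 of 4 antigen-processing genes, but in 1 of 5 transcription factors, of which 3 held the second element. The matches of 7 members from 5 roles, chosen after their values were seen, are shown each with 7 bases on either side, read 5′ to 3′ on the gene's strand. Capitals mark the match, and a match on the opposite strand appears as TTTC, any 2 bases, TTTC. Ifitm3 and Ifitm2 held the same 10 letters, 44 and 33 bases before the start, as did Ifi27. Rsad2 and Irf7 also shared their letters, and Oas1a held 2 overlapping matches.
Ifitm3 (minus strand, chr1:205541786-205541809): aattcagGAAAAGGAAActtctga
Ifitm2 (minus strand, chr1:205482365-205482388): ccaacagGAAAAGGAAActgctag
Oas1a (plus strand, chr12:41330418-41330447): ctctcggGAAATGGAAACTGAAAatcttgt
Rsad2 (minus strand, chr6:48788251-48788274): gttcaacTTTCATTTTCagaaaac
Irf7 (minus strand, chr1:205800076-205800099): gtttaggTTTCATTTTCccgagac
Gbp2 (plus strand, chr2:234005689-234005712): tttttagTTTCACTTTCattgtct
Psmb8 (minus strand, chr20:4657019-4657042): ctgtggcTTTCGCTTTCacttcct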

How the data were processed

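The authors deposited counts, whole numbers of reads per rat Ensembl gene and library, without normalization. Their processing notes name FastQC, Trimmomatic, HISAT2, featureCounts and DESeq2 without versions, and the mouse build mm10, although the identifiers are rat. Counts were fitted in R 4.3.3 with edgeR 4.0.16 (trimmed mean of M-values, filterByExpr with a minimum count of 10, quasi-likelihood test, Benjamini-Hochberg adjustment over all genes tested) on 5 samples, Control 2 and 3 being summed. Levels are CPM with the factors of the 6-library fit. The members and lists were chosen with earlier results of these data known, and roles were assigned by hand. Values in every library are given for members called in either fit and, by role, for the member with the highest mean CPM and the one with the largest fold change. Bst2, Ifit1, Cmpk2 and Irf9 were added after their values were seen. In the other lists, genes called or with the most reads are named. Mavs, Ifng, Ifne, Siglech, Il10rb, Csf1r, Itgam, Cd163 and Cd247 were added in the same way, as were the others named with too few reads to test. The libraries held 15560728 to 17942989 counts. The methods name 3 independent animals per group, whereas Control 2 and 3 were near-identical. The p-values of the main fit therefore measure the spread between its 5 samples. Alternatives were DESeq2 1.42.0, limma-voom (limma 3.58.1), other normalizations, filters and thresholds, a robust fit, a replicate block and each library left out. The fitting code was tested on simulated data.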

Additional observations from a re-analysis of the deposited data

How the results depend on the processing

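With all 6 libraries kept, 2727 genes were called instead of 575, with 2 members lower and 1 higher. With DESeq2, 2572 genes were called, with 2 members lower and 2 higher. At an adjusted p under 0.10, 1687 genes and 2 members lower were called, and without both near-identical Control libraries 3 genes and 0 members. Leaving out 1 library at a time gave 0 to 566 genes called, 0 to 1 members lower and a median log2 fold change of the members of −0.11 to 0.25. No gene was called without AF-PTK-labelled library 2 or 3. These fits hold fewer samples, and the cause was not otherwise tested.

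Ifitm3 was called in 12 of 17 alternatives, with adjusted p between 3e-15 and 0.136, Ifitm2 and Oas1a in 2 each and Rsad2 in 1. No called member changed direction, and other normalizations moved the median of all genes by at most 0.03. The replicate block, with all 6 libraries kept, gave 741 genes called and 1 member lower, Ifitm3 (adjusted p = 0.0336). Same-numbered libraries did not deviate together (mean r of −0.225, beside 0.102 for different numbers), so the numbers were not taken as pairs. With normalization factors from all rows, a choice replaced after seeing the data, 8 members were lower and 3 higher with no overlap, beside 24.8% and 21.1% of all genes.

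Members with few counts, such as Oas2 and Zbp1, had wide intervals, and Irf9 and Isg15 could not be tested. With 2 distinct Control samples, of which 1 differed from the other in many immune markers, a p above the threshold does not show that levels were equal.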
